A study of Homo sapiens with 24 samples.

Results

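The comparison described here is the expression difference between Aldefluor+ and Aldefluor- cells of the breast cancer line T47D, averaged over both treatments of the study. It rests on all 12 T47D arrays, taken by their labels, of 24 arrays in the series. The other 12 arrays are the same design in a second line, SUM159. T47D is a luminal breast cancer line that carries oestrogen and progesterone receptors, whereas SUM159 lacks these receptors and has mesenchymal traits. Each T47D culture received either DMSO, the solvent, or ID8, a small molecule, at 5 µM for 72 hours. The cells were stained with the Aldefluor reagent and sorted by flow cytometry into an Aldefluor+ and an Aldefluor- fraction, with the gate set on a tube that also held the inhibitor DEAB. This gave 4 groups of 3 arrays: DMSO Aldefluor+, DMSO Aldefluor-, ID8 Aldefluor+ and ID8 Aldefluor-. The 3 arrays of a group come from experiments 5, 6 and 7, and every experiment gave 1 array to every group. The labels number these as experiments of 1 line, with flasks pooled before the sort. P-values therefore measure the spread between repeats within a line, estimated for each gene over the 24 arrays of both lines. For each of the 6 pairs of fractions (3 experiments under DMSO and 3 under ID8), the Aldefluor- value was subtracted from the Aldefluor+ value, and the difference reported is the mean over both treatments.

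Aldehyde dehydrogenases oxidise aldehydes to carboxylic acids. The Aldefluor reagent is an uncharged aldehyde that enters living cells and is turned by these enzymes into a charged fluorescent product that stays inside. Efflux by ABC transporters, the amount of enzyme and the size of a cell can all bear on how bright a cell becomes. In breast cancer the bright cells are often enriched for cells that seed tumours, and the ALDH1A enzymes, which also make retinoic acid from retinaldehyde, are the members most often linked to the signal. T47D keeps many traits of hormone-responsive luminal epithelium, such as its receptors and simple keratins.

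Values are log2 signals per gene that the authors had adjusted for batch. The median of an array lay between 1.52 and 1.55 in the 12 T47D arrays. In the whole series 22395 named genes were tested, and 49% of them had a mean below 2, where signal over background is usually small. The batch adjustment can move levels, so a low value does not by itself show that a gene is near background. Arrays carry no count depth, so the number of arrays limits the precision. Of 15 genes typical of T47D, such as ESR1, GATA3 and KRT19, 15 were higher in T47D than in SUM159, and 11 of 11 genes typical of SUM159 were higher there. These level differences were between 0.084 and 1.17 for the first list and between -0.986 and -0.140 for the second (log2, T47D minus SUM159), so the check gives the direction of each gene with little margin. The mean of the T47D-typical genes lay between 4.82 and 4.92 in the Aldefluor+ arrays and between 4.80 and 4.98 in the Aldefluor- arrays. The 11 genes typical of SUM159 had means from 3.31 (ZEB1) to 5.51 (CD44) in the T47D Aldefluor+ arrays. Levels within T47D therefore do not by themselves identify the line. Endothelial, leukocyte, fibroblast and erythroid markers had list means between 0.84 and 1.67 in every T47D array. Single members read higher, such as CD68 with means of 3.54 in Aldefluor+ and 3.35 in Aldefluor- arrays. None of these 4 lists held a called gene, against 0.875% of all genes, a share at which such short lists often hold none.

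The RNA yield of a collected T47D cell was higher in the Aldefluor+ fraction in all 6 pairs. The yield was 19.3 ± 1.05 pg (SD, n = 3) in DMSO Aldefluor+ cells against 13.8 ± 3.03 pg in DMSO Aldefluor- cells. With ID8 it was 17.3 ± 4.43 pg against 11.8 ± 3.15 pg. Averaged over treatments, the log2 ratio was 0.70 in experiment 5, 0.45 in experiment 6 and 0.44 in experiment 7, which is a mean of 0.53 ± 0.146 (SD, n = 3) or 1.44-fold. The exact two-sided sign-flip test over 3 experiments gave p = 0.25, the smallest value that 3 experiments allow. The array values are normalized between arrays, so they do not show amounts of RNA per cell. In such bulk samples, fewer cells that express a gene and less RNA of it per cell cannot be told apart. The part that this difference in yield has in the array differences was not tested.

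**Figure D1:**
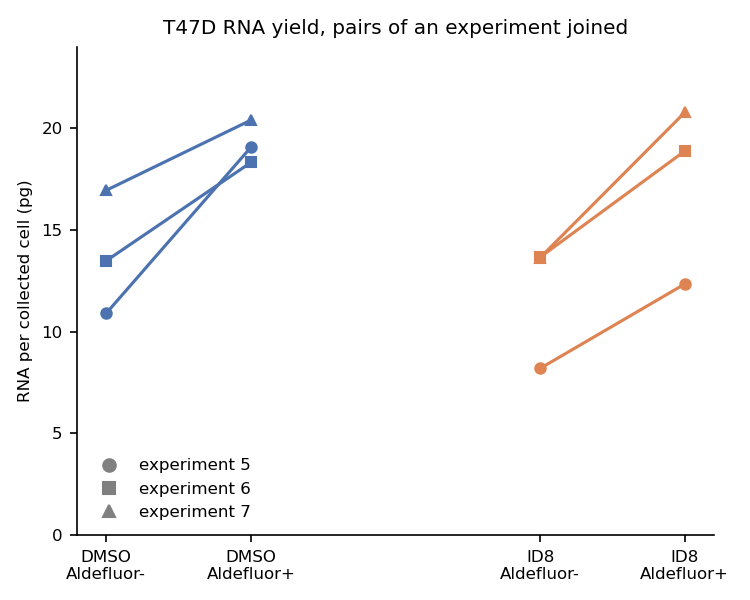
RNA per collected cell in pg (vertical axis, from 0) for the 12 T47D samples, with the 2 fractions of an experiment joined by a line. All 6 lines go up from Aldefluor- to Aldefluor+, with log2 ratios between 0.27 and 0.81.

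Of the 22395 genes, 196 differed between the fractions on average (limma, adjusted p under 0.05), which is 0.875% of the genes tested. Among them 113 (0.505%) were higher and 83 (0.371%) were lower in Aldefluor+ cells. The median size of a called difference was 0.69 on the log2 scale and the smallest was 0.31. Differences of at least 1, a doubling, were found for 27 of the higher and 13 of the lower genes. In 174 of the 196 genes all 6 pairs had the same sign, and in the other 22 genes 5 pairs had. For 115 of the 196 (58.7%) the 6 Aldefluor+ arrays lay entirely to one side of the 6 Aldefluor- arrays, against 1.89% of all genes. The 196 genes were called on these same arrays, so the counts of signs and of separation describe them and are no separate support. Of the called genes, 29 (14.8%) had a T47D mean below 2. Leaving out 1 experiment lowered the count to 48 genes without experiment 5, 68 without experiment 6 and 63 without experiment 7. Of these, 43, 59 and 59 were among the 196. Fitted on the 12 T47D arrays alone, the count was 128, of which 113 were among the 196.

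SLC6A14, a transporter that takes up neutral and cationic amino acids together with sodium and chloride, had the largest difference of all genes tested. SLC6A14 read 0.91, 0.82 and 1.22 in the DMSO Aldefluor- arrays, 3.40, 3.62 and 3.54 in DMSO Aldefluor+, 1.76, 2.27 and 1.87 in ID8 Aldefluor- and 4.66, 4.52 and 4.56 in ID8 Aldefluor+, each in the order of experiments 5, 6 and 7. Both fractions were higher with ID8 than with DMSO, and the lowest Aldefluor+ array stood above the highest Aldefluor- array. The means were 4.05 ± 0.588 in Aldefluor+ and 1.48 ± 0.579 in Aldefluor- cells (SD, n = 6 each), a log2 difference of 2.58 ± 0.136 (SE), with an adjusted p of 4.88e-08. The DMSO Aldefluor- arrays lay below the median of every array. If they are near background, the size of this difference may be understated, which was not tested. COX7B2, a relative of a small cytochrome c oxidase subunit that is known mainly from testis, was next among the genes with 6 pairs of one sign. COX7B2 read 1.17, 1.32 and 1.29 in the DMSO Aldefluor- arrays, 3.18, 3.01 and 2.82 in DMSO Aldefluor+, 1.88, 1.64 and 2.18 in ID8 Aldefluor- and 3.27, 3.39 and 3.29 in ID8 Aldefluor+. Its fractions did not overlap, and the Aldefluor+ values stayed within 2.82 to 3.39 under both treatments. The difference was 1.58 ± 0.122 (adjusted p = 3.87e-06), while none of the other 16 measured subunits on the list of 17 passed the test.

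Receptors for peptide hormones were among the highest genes. NPR3 is the clearance receptor that binds and removes natriuretic peptides. NPR3 read 4.34, 3.84 and 3.71 in the DMSO Aldefluor- arrays, 4.85, 4.94 and 5.31 in DMSO Aldefluor+, 4.39, 4.57 and 4.49 in ID8 Aldefluor- and 6.41, 6.50 and 6.33 in ID8 Aldefluor+. Its Aldefluor+ arrays all lay above its Aldefluor- arrays, with a difference of 1.50 ± 0.161 (adjusted p = 0.000103). CALCR encodes the calcitonin receptor, which couples to cyclic AMP signalling. CALCR read 1.08, 1.04 and 1.06 in the DMSO Aldefluor- arrays, 2.08, 1.72 and 2.46 in DMSO Aldefluor+, 0.82, 1.03 and 0.92 in ID8 Aldefluor- and 2.97, 3.00 and 2.61 in ID8 Aldefluor+. All 6 Aldefluor- arrays lay within 0.82 to 1.08, below the median of every array, and the 6 Aldefluor+ arrays lay within 1.72 to 3.00. The difference was 1.48 ± 0.137 (adjusted p = 3.41e-05), and its size may be understated if those arrays are near background, which was not tested. No other member passed among 6 measured genes of the natriuretic peptide system or 10 of the calcitonin family; the receptor partners RAMP1, RAMP2 and RAMP3 differed by 0.14, 0.07 and 0.16. LMO4, a LIM-only cofactor of transcription that luminal progenitors express, read 3.71 to 4.14 in Aldefluor- and 4.97 to 5.76 in Aldefluor+ arrays, a difference of 1.44 ± 0.13 (adjusted p = 3.1e-05). It was the only called gene of 17 measured on the luminal progenitor and alveolar list.

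SLC6A14, COX7B2, NPR3, CALCR and LMO4 kept an adjusted p under 0.05 without each experiment in turn, with highest values of 5.68e-05, 0.00128, 0.00876, 0.00411 and 0.00414. Other genes of the highest 15 are less well understood. The long noncoding RNA LINC01016 differed by 1.51 ± 0.175, the predicted glycine acyltransferase GLYATL3 by 1.31 ± 0.148 and the metallophosphoesterase MPPED2 by 1.14 ± 0.137. VTCN1, the B7 family ligand B7-H4 that restrains T cells, differed by 1.25 ± 0.19 (adjusted p = 0.00319), with an adjusted p of 0.108 without experiment 5. The probe set named RN5S141 is for a copy of the 5S ribosomal RNA, and its difference of 1.57 ± 0.345 is uncertain because near-identical copies can share its probes. MIR548F2 belongs to a microRNA family with many copies, and its 1.22 ± 0.264 is uncertain for the same reason. Without 1 experiment the adjusted p rose to as much as 0.24 for RN5S141, 0.313 for MIR548F2 and 0.247 for LOC100240734, a gene with no established role that differed by 1.36 ± 0.261.

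**Figure D2:**
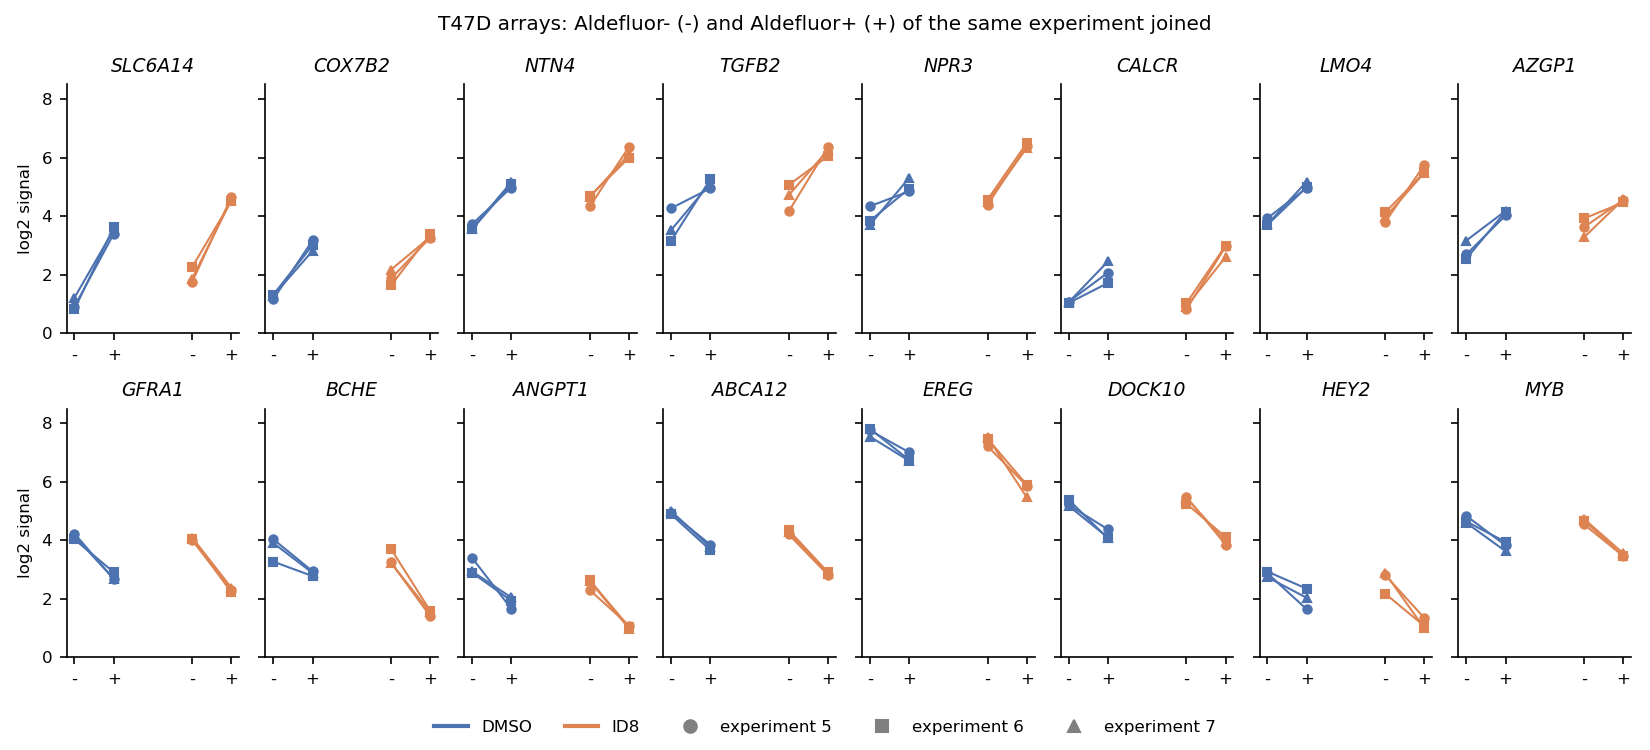
Log2 signal of 8 genes that were higher (top) and 8 that were lower (bottom) in Aldefluor+ T47D cells, one line per experiment and treatment, joining the Aldefluor- array to the Aldefluor+ array of the same experiment. All 6 lines go up in each upper panel and down in each lower panel.

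GFRA1, the gene with the most negative difference among those with 6 pairs of one sign, is the membrane-anchored co-receptor through which the neurotrophic factor GDNF signals by RET, and in breast it is known as an oestrogen-responsive gene. GFRA1 read 4.23, 4.03 and 4.14 in the DMSO Aldefluor- arrays, 2.68, 2.91 and 2.69 in DMSO Aldefluor+, 4.00, 4.05 and 4.09 in ID8 Aldefluor- and 2.29, 2.22 and 2.37 in ID8 Aldefluor+. The 6 Aldefluor- arrays lay within 4.00 to 4.23 and all 6 Aldefluor+ arrays lay below them. The difference was -1.56 ± 0.174 (adjusted p = 0.000147), while RET itself differed by -0.14 (adjusted p = 0.863) and no other gene passed of 9 measured in this family. EREG encodes epiregulin, a ligand of the EGF receptor. EREG read 7.75, 7.82 and 7.54 in the DMSO Aldefluor- arrays, 7.01, 6.74 and 6.72 in DMSO Aldefluor+, 7.21, 7.47 and 7.52 in ID8 Aldefluor- and 5.86, 5.90 and 5.46 in ID8 Aldefluor+. The ID8 Aldefluor+ arrays were the lowest, and the fractions did not overlap. The difference was -1.27 ± 0.129 (adjusted p = 6.48e-05). EGFR, the receptor, went the other way with 0.46 ± 0.0784 (adjusted p = 0.00778), and these 2 genes were the only ones called of 14 in the EGF and ERBB family. Without experiment 5, 6 or 7 the adjusted p of EGFR was 0.12, 0.111 and 0.0987, while GFRA1 and EREG reached at most 0.0149 and 0.00637.

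ANGPT1, the angiopoietin that activates the endothelial receptor TIE2, was also lower. ANGPT1 read 3.40, 2.89 and 2.93 in the DMSO Aldefluor- arrays, 1.66, 1.93 and 2.05 in DMSO Aldefluor+, 2.30, 2.63 and 2.61 in ID8 Aldefluor- and 1.09, 1.04 and 0.98 in ID8 Aldefluor+. The 3 ID8 Aldefluor+ values were the lowest and lay below the median of every array. The difference was -1.34 ± 0.141 (adjusted p = 9.41e-05), and ANGPT1 was the only called gene of 12 measured angiopoietin and VEGF ligands and receptors. HEY2, a transcriptional repressor induced by Notch, was lower, with a difference of -1.16 ± 0.164 (adjusted p = 0.00152). Its Aldefluor+ arrays ranged over 0.99 to 2.35 and its Aldefluor- arrays over 2.18 to 2.93, so the fractions overlapped across treatments but not within one. It was the only called gene of 19 measured in the Notch pathway. Without experiment 7 the adjusted p of HEY2 was 0.0546, and ANGPT1 stayed at or below 0.00637 without any one experiment.

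DOCK10, an exchange factor for small GTPases, separated the fractions under both treatments. DOCK10 read 5.21, 5.39 and 5.18 in the DMSO Aldefluor- arrays, 4.37, 4.07 and 4.09 in DMSO Aldefluor+, 5.48, 5.25 and 5.45 in ID8 Aldefluor- and 3.85, 4.11 and 3.95 in ID8 Aldefluor+. No Aldefluor+ array came within the Aldefluor- range of 5.18 to 5.48, and the difference was -1.25 ± 0.119 (adjusted p = 4.26e-05). BCHE, the enzyme butyrylcholinesterase, read 1.41 to 2.94 in Aldefluor+ and 3.22 to 4.04 in Aldefluor- arrays. Its lowest values were the 3 ID8 Aldefluor+ arrays, and the difference was -1.37 ± 0.232 (adjusted p = 0.00685). The adjusted p of BCHE was 0.136, 0.0657 and 0.105 without experiments 5, 6 and 7, whereas DOCK10 stayed at or below 0.00601. Further genes of the lowest 15 were the presynaptic scaffold RIMS1 (-1.07), the homeobox factor DLX5 (-1.06), the membrane-type metalloproteinase MMP16 (-1.02), the drug and cation exporter SLC47A1 (-0.98), the secreted hormone STC1 (-0.97) and the endosomal sorting nexin SNX10 (-0.97). SNX10 and RIMS1 were called without each experiment in turn. MMP16 was not called without experiment 7 (0.0504), DLX5 without experiment 6 (0.0543), STC1 without experiments 5 or 7 (0.0658 and 0.102) and SLC47A1 without experiments 5 or 7 (0.392 and 0.279).

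Promoter sequence was read for the called genes, because their start regions are where a shared feature could be seen. RefSeq windows of 300 bases, from 250 before to 50 after the start of a gene on GRCh38.p14, were found for 81 of the 113 higher and 60 of the 83 lower genes. The AP-1-like motif TGANTCA was searched on both strands with any base as N, whereas the usual AP-1 site has C or G there. It was present for 14 of the 81 higher genes (17.3%) and 10 of the 60 lower genes (16.7%), against 8.36% of 15307 tested genes with a window. The TATA box letters TATAAA were present for 25.9% of higher and 18.3% of lower genes, against 12.1%. The TEAD motif GGAATG was present for 21.0% and 16.7%, against 15.5%. The cyclic AMP response motif TGACGTC was found for 3.70% and 3.33%, against 5.28%, the forkhead motif TGTTTAC for 3.70% and 8.33%, against 3.89%, and the GATA motif AGATAA for 9.88% and 6.67%, against 10.5%. The steroid (glucocorticoid and progesterone) response element was found for 1.23% and 5.0%, against 2.52%, and the palindromic oestrogen response element for 0 genes of both groups, against 0.0327%. These 8 motifs were all that were searched. The median GC content of the windows was 59.5% for higher genes, 62.7% for lower genes and 62.3% for all, and its part in the shares of AT-rich letters was not tested. A match describes letters and not binding. Below are the 250 bases before the start of 2 higher and 2 lower genes, 5′ to 3′ on the strand of the gene, chosen because each holds the TGANTCA letters shown in capitals. They lie at chrX:116436356-116436605 (plus strand, match beginning at position -216 from the start), chr4:46909246-46909495 (minus strand, -177), chr12:47079952-47080201 (minus strand, -231) and chr3:165837424-165837673 (minus strand, -116).
SLC6A14: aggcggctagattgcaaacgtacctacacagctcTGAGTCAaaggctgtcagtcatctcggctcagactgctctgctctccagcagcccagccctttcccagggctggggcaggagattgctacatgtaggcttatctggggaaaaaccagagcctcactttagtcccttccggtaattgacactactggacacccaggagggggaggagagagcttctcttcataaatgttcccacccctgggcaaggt
COX7B2: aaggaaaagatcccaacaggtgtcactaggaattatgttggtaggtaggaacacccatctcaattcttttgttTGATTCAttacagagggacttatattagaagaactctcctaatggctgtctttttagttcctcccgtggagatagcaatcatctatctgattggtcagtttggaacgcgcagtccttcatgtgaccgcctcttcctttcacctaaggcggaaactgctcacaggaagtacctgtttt
AMIGO2: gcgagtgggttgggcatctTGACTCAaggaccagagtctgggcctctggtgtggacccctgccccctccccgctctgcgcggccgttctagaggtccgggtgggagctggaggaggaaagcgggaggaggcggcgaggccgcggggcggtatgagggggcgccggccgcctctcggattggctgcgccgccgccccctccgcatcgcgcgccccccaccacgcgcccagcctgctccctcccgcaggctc
BCHE: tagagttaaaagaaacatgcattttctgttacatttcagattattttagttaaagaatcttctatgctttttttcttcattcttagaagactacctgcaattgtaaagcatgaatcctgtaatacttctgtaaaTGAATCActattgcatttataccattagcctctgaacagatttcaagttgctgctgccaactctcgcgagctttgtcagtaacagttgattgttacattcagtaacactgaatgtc
SLC6A14 and COX7B2 were higher in Aldefluor+ cells, and AMIGO2, an adhesion protein with leucine-rich repeats, and BCHE were lower, so the motif letters stood in front of genes of both directions. At N, SLC6A14 holds G and AMIGO2 holds C, while COX7B2 holds T and BCHE holds A, bases outside the usual AP-1 site.

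No measured aldehyde dehydrogenase gene passed the test between the T47D fractions, and ALDH4A1 and ALDH7A1 were not measured. Of 17 measured members of the family none was called, against 0.875% of all genes, a share at which such a list often holds none. The median difference of the family was -0.02. ALDH1A1 read 3.18, 3.28 and 2.75 in the DMSO Aldefluor- arrays, 3.21, 3.27 and 3.36 in DMSO Aldefluor+, 3.14, 3.19 and 3.27 in ID8 Aldefluor- and 3.21, 3.01 and 3.30 in ID8 Aldefluor+. The 12 values of ALDH1A1 stayed within 2.75 to 3.36 and the fractions overlapped under both treatments. The difference was 0.09 ± 0.121 (adjusted p = 0.859). ALDH1A3 read 1.71, 2.28 and 2.02 in the DMSO Aldefluor- arrays, 2.43, 2.01 and 1.78 in DMSO Aldefluor+, 1.93, 1.79 and 2.11 in ID8 Aldefluor- and 2.65, 2.61 and 2.91 in ID8 Aldefluor+. The ALDH1A3 values of the Aldefluor+ arrays were higher in all 3 pairs with ID8 and in 1 of 3 pairs with DMSO, and the average of 0.42 ± 0.144 missed the threshold (adjusted p = 0.226). ALDH1A2 stayed below the median of every array at 0.88 to 1.33 (0.16 ± 0.0985). ALDH2, the mitochondrial enzyme that clears acetaldehyde, had the most negative difference of the family with -0.58 ± 0.189 (adjusted p = 0.206). These missed tests do not show that the fractions had equal levels. Among 22 measured genes of retinoic acid metabolism and response, RBP4, the carrier of retinol, was called with 0.54 ± 0.0855 (adjusted p = 0.00431). Its arrays lay at 0.86 to 1.15 in Aldefluor- and 1.44 to 1.68 in Aldefluor+ cells, which is low signal, and it was not called when any one experiment was left out (0.0733, 0.107 and 0.0818). DHRS3, a retinaldehyde reductase that retinoic acid induces, differed by 0.44 ± 0.123 (adjusted p = 0.138).

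Across the 45 gene lists, 25 held at least 1 called gene and 20 held none. Of 759 distinct members measured, 38 were called (5.01%), of which 23 were higher and 15 lower. This share is above the 0.875% of all genes, but many lists were drawn up with earlier results of these arrays known, so it describes the choice of lists as well as the data. Below, a list is described by its count and its median, beside the median of all genes of -0.0025 and their share above 0 of 49.3%.

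**Figure D3:**
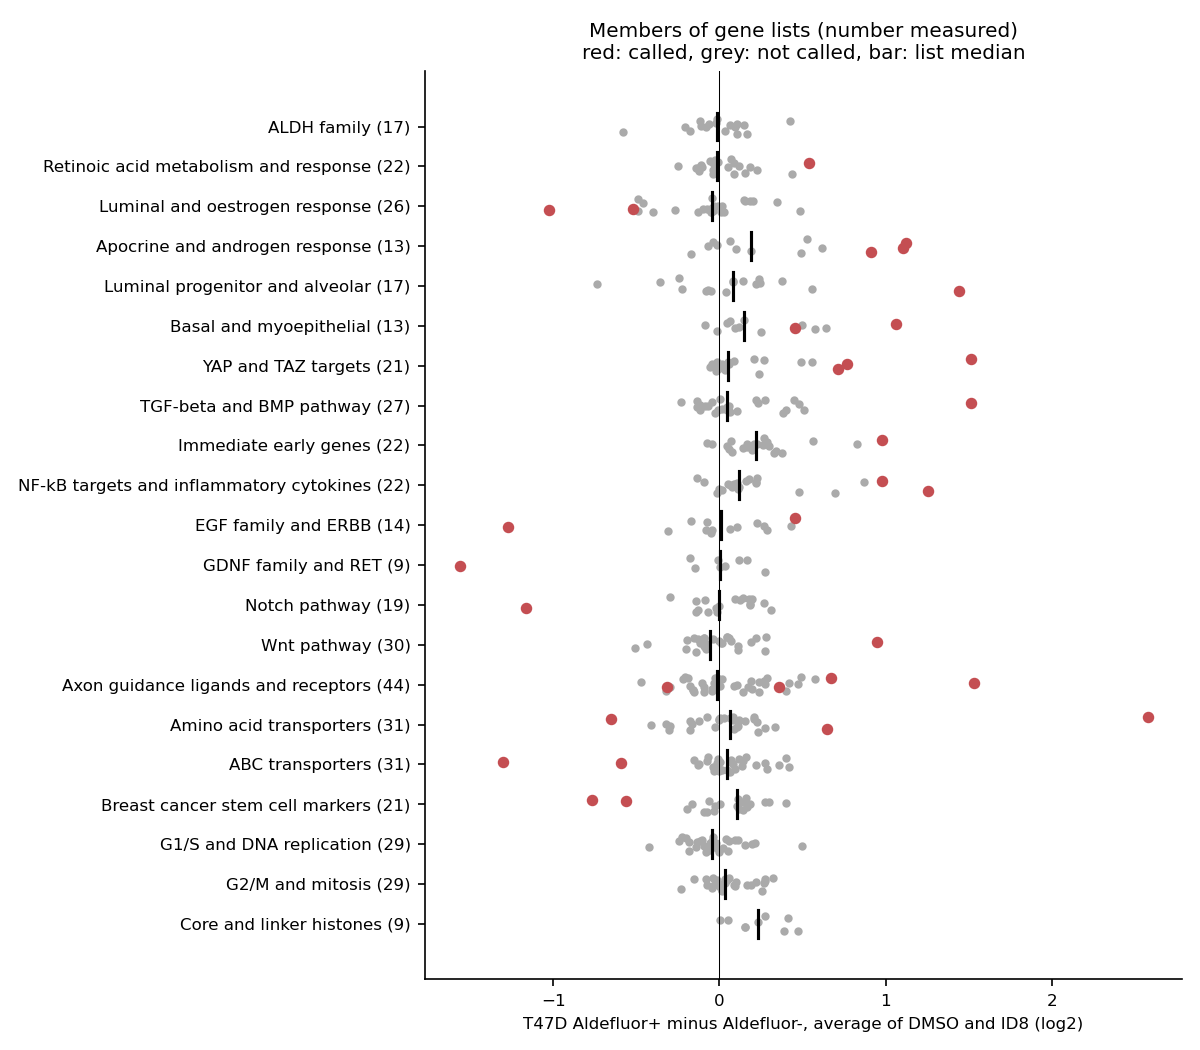
Average Aldefluor+ minus Aldefluor- difference (log2, horizontal axis) of the members of 21 gene lists in T47D, with called genes in red, others in grey and the list median as a bar. The list medians lie between -0.05 (Wnt pathway) and 0.23 (core and linker histones, with all 9 members above 0). Red points are few in each list and, over the 21 lists, lie on both sides of 0.

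Single members of the TGF-beta, Wnt and Hippo pathway lists were higher in Aldefluor+ cells. TGFB2, a TGF-beta ligand, read 3.16 to 5.07 in Aldefluor- and 4.95 to 6.36 in Aldefluor+ arrays. Its lowest Aldefluor+ array belongs to DMSO and its highest Aldefluor- array to ID8, so the overlap lies between treatments and not within one. The difference was 1.52 ± 0.173 (adjusted p = 0.000168), and of 27 measured genes of the TGF-beta and BMP pathway it was the only one called; the receptor TGFBR1 differed by 0.38 ± 0.0938 (adjusted p = 0.071). DKK1, a secreted inhibitor of Wnt co-receptors, was the only called gene of 30 in the Wnt pathway. DKK1 read 2.54, 2.32 and 2.59 in the DMSO Aldefluor- arrays, 3.60, 3.32 and 3.40 in DMSO Aldefluor+, 2.03, 2.10 and 2.09 in ID8 Aldefluor- and 2.93, 3.15 and 2.95 in ID8 Aldefluor+. Its fractions did not overlap, although both were lower with ID8, and the difference was 0.95 ± 0.116 (adjusted p = 0.000351). On the list of 21 YAP and TAZ targets, which also holds TGFB2, CRIM1 (0.71 ± 0.12), a membrane protein that binds bone morphogenetic proteins, and FJX1 (0.77 ± 0.136), a secreted relative of the fly protein four-jointed, were called. The best known targets of the list were not, with 0.49 ± 0.117 for CCN1 (adjusted p = 0.0609), 0.56 ± 0.242 for CCN2 (0.395) and 0.24 ± 0.132 for ANKRD1 (0.545). The list median was 0.05. TGFB2 and DKK1 stayed called without each experiment; CRIM1 was not called without experiments 5 or 6 (0.156 and 0.0977), nor FJX1 without experiments 6 or 7 (0.162 and 0.114).

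Guidance molecules first known from growing axons went in both directions. NTN4 is a netrin related to laminin that is laid down in basement membranes. NTN4 read 3.73, 3.56 and 3.58 in the DMSO Aldefluor- arrays, 4.98, 5.10 and 5.16 in DMSO Aldefluor+, 4.34, 4.68 and 4.66 in ID8 Aldefluor- and 6.38, 6.00 and 6.12 in ID8 Aldefluor+. The fractions did not overlap, and the lowest Aldefluor+ array, in DMSO, stood at 4.98 against a highest Aldefluor- array, in ID8, of 4.68. The difference was 1.53 ± 0.113, or 2.89-fold (adjusted p = 2.52e-06). EFNB2, a membrane ligand of Eph receptors (0.67 ± 0.135), and ROBO1, a receptor of SLIT proteins (0.36 ± 0.0675), were also called higher, and the secreted semaphorin SEMA3C was called lower (-0.32 ± 0.0674). Under DMSO, EFNB2, ROBO1 and SEMA3C differed by only 0.19, 0.10 and -0.11, and with ID8 by 1.15, 0.62 and -0.52. Their averages thus came mostly from the ID8 pairs, although no gene passed the test of the treatment difference. Of 44 measured members 4 were called in all, and the list median was -0.01. SEMA3E, ROBO2 and EFNA5 came next with 0.57, 0.49 and 0.47 (adjusted p = 0.0544, 0.0795 and 0.1). NTN4 stayed at or below an adjusted p of 0.000709 without any one experiment. EFNB2, ROBO1 and SEMA3C lost the call when any one of the 3 experiments was left out, with adjusted p up to 0.259, 0.248 and 0.281.

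Adhesion proteins with leucine-rich repeats were called in both directions as well. SLITRK6, a membrane protein of neurons and the inner ear, had a difference of 1.66 ± 0.221 (adjusted p = 0.000873), with 5 of 6 pairs of one sign. SLITRK6 read 1.72, 1.00 and 1.49 in the DMSO Aldefluor- arrays, 4.13, 3.98 and 3.90 in DMSO Aldefluor+, 1.39, 2.02 and 0.77 in ID8 Aldefluor- and 1.71, 1.77 and 2.86 in ID8 Aldefluor+. The DMSO Aldefluor+ arrays stood above all others, and with ID8 the pair of experiment 6 ran the other way. AMIGO2 differed by -1.12 ± 0.125 (adjusted p = 0.000147) with no overlap, at 3.00 to 3.74 in Aldefluor+ and 4.03 to 4.81 in Aldefluor- arrays. These were the called genes of 17 measured, and LRRN1 and FLRT3 followed with 0.95 and 0.85 (adjusted p = 0.0715 and 0.104). Both called genes stayed so without each experiment, at most at 0.0135 and 0.00676.

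Transporters of amino acids and ABC transporters showed single genes and no common shift. Of 31 amino acid transporters, SLC6A14 and SLC7A5 were higher and SLC7A11 was lower, with a list median of 0.06. SLC7A5 is the light chain of the exchanger that brings in large neutral amino acids. SLC7A5 read 8.20, 8.16 and 8.65 in the DMSO Aldefluor- arrays, 9.08, 9.20 and 9.24 in DMSO Aldefluor+, 8.71, 8.79 and 8.55 in ID8 Aldefluor- and 9.26, 9.19 and 8.99 in ID8 Aldefluor+. Its fractions did not overlap, and the difference was 0.65 ± 0.118 (adjusted p = 0.0119). SLC7A11, which imports cystine for glutathione synthesis, differed by -0.65 ± 0.114 (adjusted p = 0.00895). It was also the only called gene of 18 measured NRF2 targets. Of 31 measured ABC transporters, which include pumps that can export the Aldefluor product, none was called higher. The share over all genes was 0.505%, at which such a list often holds none. ABCA12, a lipid transporter of skin cells, read 4.20 to 5.00 in Aldefluor- and 2.82 to 3.85 in Aldefluor+ arrays, a difference of -1.30 ± 0.0904 (adjusted p = 1.64e-06). ABCC5, an exporter of cyclic nucleotides and folates, differed by -0.59 ± 0.133 (adjusted p = 0.048), and the drug pump ABCG2 by 0.40 ± 0.123 (adjusted p = 0.179). ABCA12 reached at most 0.000709 without one experiment. SLC7A5 was not called without experiments 5 or 6 (0.197 and 0.162), and SLC7A11 and ABCC5 lost the call whichever experiment was left out (up to 0.104 and 0.319).

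Markers of mammary cell states shifted for a few members. Of 13 measured genes of apocrine differentiation and androgen response, 3 were higher, and the list median was 0.19. AZGP1, a secreted zinc-binding glycoprotein of apocrine cells, read 2.55 to 3.93 in Aldefluor- and 4.03 to 4.57 in Aldefluor+ arrays (1.12 ± 0.154, adjusted p = 0.00114). DCD, which encodes the sweat gland peptide dermcidin (1.10 ± 0.22), and KMO, an enzyme of tryptophan breakdown (0.91 ± 0.168), were the others. CYP4Z1 and CLDN8 did not pass, with 0.62 and 0.49 (adjusted p = 0.189 and 0.283). Of the 13 genes, 9 lay above 0 and 8 had a T47D mean below 2. PIP, with means of 6.20 in Aldefluor+ and 6.24 in Aldefluor- arrays, differed by -0.04, and UGT2B11, SULT1C2 and FASN also lay below 0. Of 13 basal and myoepithelial genes, 11 had a difference above 0 and KRT16 and EGFR were called. KRT16, a keratin of activated epithelium, read 1.10 to 1.40 in Aldefluor- and 1.65 to 2.92 in Aldefluor+ arrays (1.06 ± 0.199, adjusted p = 0.0147). KRT15, CDH3 and ACTA2 missed the threshold with 0.64, 0.57 and 0.50 (adjusted p = 0.0795, 0.19 and 0.179). AZGP1 was not called without experiment 5 (0.0541), KRT16 without experiments 6 or 7 (0.184 and 0.08), and DCD and KMO lost the call whichever experiment was left out (up to 0.224 and 0.176).

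Of 26 luminal and oestrogen response genes, 2 were lower and none was higher, and 9 of the 26 differences lay above 0. MYB, a transcription factor that oestrogen signalling sustains in luminal breast cancer, was the first. MYB read 4.83, 4.64 and 4.60 in the DMSO Aldefluor- arrays, 3.83, 3.94 and 3.63 in DMSO Aldefluor+, 4.54, 4.67 and 4.73 in ID8 Aldefluor- and 3.46, 3.45 and 3.55 in ID8 Aldefluor+. All 6 Aldefluor- arrays stood above all 6 Aldefluor+ arrays, with a difference of -1.03 ± 0.121 (adjusted p = 0.000239). CXCL12, a chemokine and oestrogen-responsive gene, differed by -0.52 ± 0.116 (adjusted p = 0.0446). The oestrogen receptor gene ESR1 differed by -0.49 ± 0.139 (adjusted p = 0.141) and IGFBP4 by -0.49 ± 0.122 (0.0777), while PDZK1, another known target, lay at 0.49 ± 0.131 (0.11). The progesterone receptor gene PGR differed by -0.10 and GATA3 by -0.01 (adjusted p = 0.733 and 0.986). MYB stayed called without each experiment, and CXCL12 lost the call whichever was left out (up to 0.388). Of 21 markers used for breast cancer stem cells, SOX2 (-0.77 ± 0.155) and the adhesion molecule ALCAM (-0.56 ± 0.0878) were called, both lower in Aldefluor+ cells. CD44, CD24 and PROM1 differed by 0.16, 0.14 and 0.15 (adjusted p = 0.522, 0.647 and 0.757). SOX2 lost the call whichever experiment was left out (up to 0.337), and ALCAM was not called without experiments 6 or 7 (0.0586 and 0.0838).

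Among 22 immediate early genes, which respond within minutes to growth factors or stress, 20 had a difference above 0 and the median was 0.22. FOS was the called one. FOS read 1.56, 1.72 and 1.76 in the DMSO Aldefluor- arrays, 1.98, 2.57 and 2.13 in DMSO Aldefluor+, 1.70, 1.50 and 1.58 in ID8 Aldefluor- and 3.23, 2.72 and 3.07 in ID8 Aldefluor+. The 6 Aldefluor- values lay within 1.50 to 1.76 and the Aldefluor+ values above them, highest with ID8, and the difference was 0.98 ± 0.155 (adjusted p = 0.00431). FOSB (0.83 ± 0.207, adjusted p = 0.0795) and DUSP1 (0.56 ± 0.164, 0.152) came next and did not pass. FOS was called without experiment 6 (0.0485) and not without experiments 5 or 7 (0.0728 and 0.083). Of 22 NF-kB targets and inflammatory cytokines, CCL22, a chemokine for regulatory T cells (1.25 ± 0.21, 5 of 6 pairs), and SAA1, an acute-phase protein (0.98 ± 0.171), were called. CCL22 reached an adjusted p of 0.219 without experiment 5, and SAA1 of 0.0657 and 0.112 without experiments 6 and 7. CCL2 did not pass, at 0.87 ± 0.227 (adjusted p = 0.0964). Lower in Aldefluor+ cells were THBS1, an adhesive glycoprotein of the matrix and 1 of 21 EMT and mesenchymal genes (-0.66 ± 0.103, adjusted p = 0.00431), and PTGES, the last enzyme of prostaglandin E2 synthesis and 1 of 11 genes of that pathway (-0.75 ± 0.146, 0.0189). THBS1 was not called without experiments 5 or 7 (0.0969 and 0.0924), and PTGES lost the call whichever experiment was left out (up to 0.339).

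Cell cycle lists held no called gene, where 0.875% of all genes were called, a share at which such lists often hold none. The median was -0.05 over 29 G1/S and replication genes and 0.03 over 29 G2/M and mitosis genes, with members between -0.43 and 0.49 and between -0.23 and 0.32. Under DMSO these medians were 0.02 and 0.16, and with ID8 they were -0.14 and -0.01. The medians of all genes were 0.0033 under DMSO and -0.0062 with ID8. All 9 measured core and linker histones had a difference above 0, with a median of 0.23, and none passed the test. Of 19 chaperones of the endoplasmic reticulum 4 lay above 0, with a median of -0.09. Interferon response, hypoxia, ATF4 and cholesterol genes had medians between -0.03 and 0.07, with no call.

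Whether the fraction difference itself depended on the treatment was tested by subtracting the DMSO difference from the ID8 difference. No gene of 22395 was called (0%), and 1328 genes had an unadjusted limma p under 0.05, which is 5.93% of all. Of the 196 genes called for the average, 42 had such an unadjusted p. The smallest adjusted p was 0.504, for FGG, a fibrinogen chain chosen here after its value was seen, which differed by 1.02 under DMSO and -0.01 with ID8. FGG was the single gene of the 196 whose difference had opposite signs under the 2 treatments. The error of this test is larger than that of the average, with a median SE over the 196 genes of 0.239 against 0.119. SLITRK6 differed by 2.60 under DMSO and 0.72 with ID8, a change of -1.88 ± 0.441 (adjusted p = 0.505). PTGES differed by -1.34 and -0.15, and its ID8 arrays lay between 1.56 and 2.05 in both fractions. CCL22 ran the other way with 0.47 under DMSO and 2.04 with ID8 (1.58 ± 0.421, adjusted p = 0.564), as did EREG with -0.88 and -1.66 (-0.78 ± 0.258, 0.685). SLC6A14 gave 2.54 and 2.62, a change of 0.08 ± 0.271. A missed threshold does not show that the differences were equal.

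**Figure D4:**
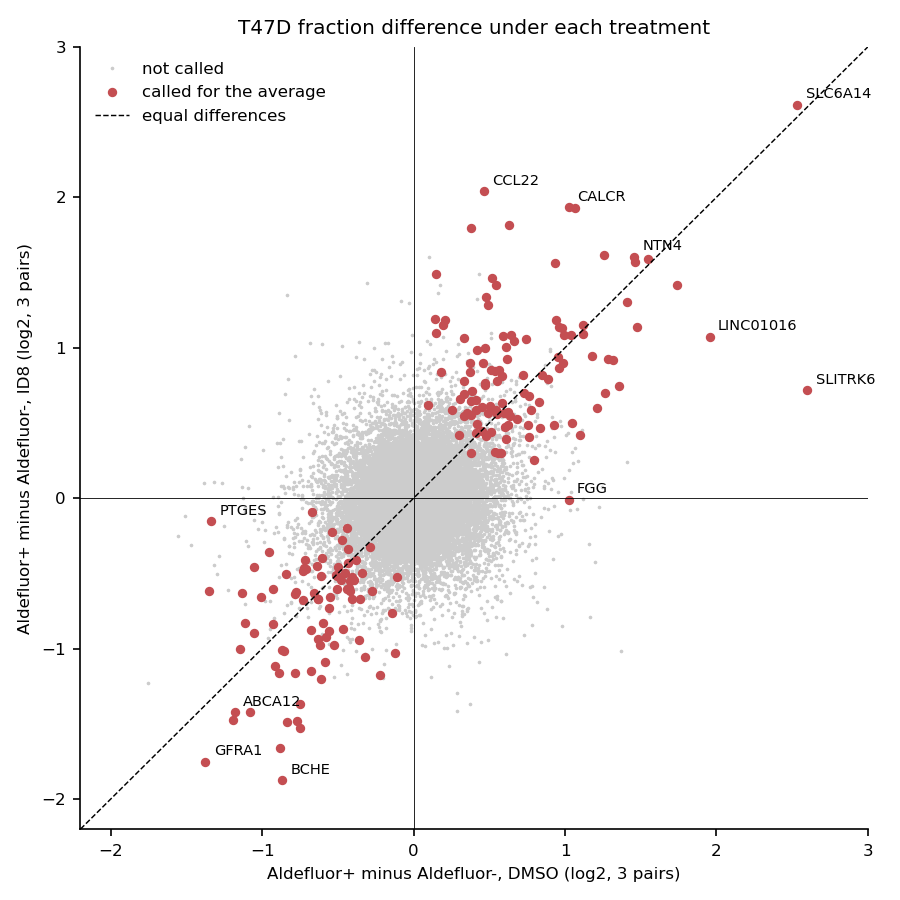
Aldefluor+ minus Aldefluor- difference (log2) in T47D under DMSO (horizontal) and with ID8 (vertical), one point per gene, with the 196 genes called for the average in red and equality as a dashed line. SLITRK6, PTGES and FGG lie far from the dashed line, and no gene passed the test of that distance.

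The average difference of T47D was then compared with the same average in SUM159, whose 12 arrays share none with T47D. The test of the difference called 107 genes (0.478% of those tested), 64 (0.286%) with a more positive and 43 (0.192%) with a more negative difference in T47D. ALDH1A1 had the smallest p. It differed by 0.09 ± 0.121 in T47D and 2.91 ± 0.121 in SUM159, which is -2.82 ± 0.171 between the lines (adjusted p = 4.29e-07). SLC6A14 differed by 0.14 ± 0.136 in SUM159, or 2.44 ± 0.192 between the lines (adjusted p = 8.91e-06). TGFB2 and DKK1 had differences below 0 in SUM159, -0.79 and -0.60, and were 2.30 ± 0.244 and 1.54 ± 0.164 apart (adjusted p = 0.000139 and 0.000139). SNX10 and ABCA12, lower in T47D Aldefluor+ cells, had 0.71 and 0.23 in SUM159 (adjusted p of the line difference 8.91e-06 and 1.21e-05). NTN4 and COX7B2 had -0.19 and -0.17 there (4.03e-05 and 7.42e-05). For NPR3, with 0.89 in SUM159, and AMIGO2, with -0.80, the lines were not called different (0.61 ± 0.228, adjusted p = 0.378, and -0.32 ± 0.176, 0.633). The count fell to 38, 36 and 36 without experiments 5, 6 and 7 of T47D. Each experiment belongs to 1 line and the terms of the batch adjustment are not known, so this comparison used differences within a line and not levels between lines.

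**Figure D5:**
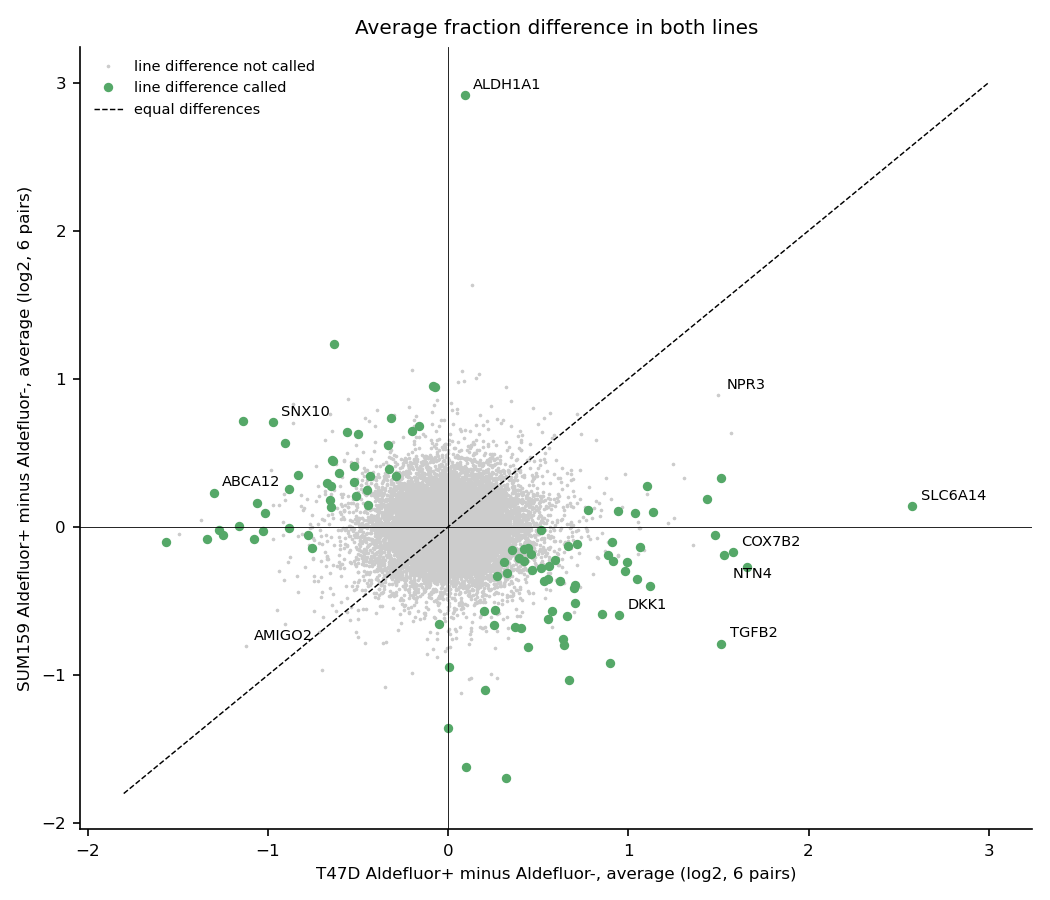
Average Aldefluor+ minus Aldefluor- difference (log2) in T47D (horizontal) and SUM159 (vertical), one point per gene, with the 107 genes whose difference between the lines was called in green and equality as a dashed line. ALDH1A1 stands alone at the top with 2.91 in SUM159 and 0.09 in T47D, and SLC6A14 at the right with 2.58 in T47D and 0.14 in SUM159.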

How the data were processed

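The authors' deposited table holds log2 signals of 24 Affymetrix Human Gene ST arrays, which per the submitters' processing notes come from RMA. The series' design text states that experiment and processing batches were adjusted with ComBat, and limma was run on the result. Which versions, batches and protected covariates were used is not given in the sources available here, and such an adjustment can compress differences.

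Probe sets with 1 gene symbol were kept, symbols were updated by gene number to RefSeq (GRCh38.p14), and the probe set with the highest mean was used for each of 632 genes with several. All 22395 genes were fitted in limma 3.58.1 (R 4.3.3) with 8 groups and a block for experiment nested in line (12 residual degrees of freedom). P-values were adjusted by Benjamini-Hochberg over all genes, with a threshold of 0.05. The script was tested on simulated data.

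Arrays are paired by experiment number, which the labels give. Deviations of same-experiment arrays correlated between -0.355 and -0.29 over 18 pairs, and those of other experiments and groups between 0.128 and 0.208. Experiment means had an SD over genes of 0.0184 around the line mean, where the spread between arrays would give 0.0972, so these means were already removed and the correlations do not test the pairing.

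The comparison and the lists were chosen with earlier results of these data known. Named were the 15 highest and 15 lowest called genes with 6 pairs of one sign, every called list member, up to 3 further members per list, ALDH1A1, ALDH1A2, ALDH1A3 and ALDH2, and for the line difference 8 of these with the smallest p. Other genes were chosen after their values were seen. Genes just inside the threshold were SLC47A1 (0.0485) and MCU (0.0497), and just outside ARHGAP27P2 and HERC6 (0.0510).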

Additional observations from a re-analysis of the deposited data

Results flagged for a closer look

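The T47D and SUM159 averages differed for 107 genes by the limma test of the difference itself (adjusted p under 0.05). Of the genes named in the report, 8 with the smallest p are given here as T47D minus SUM159 on the log2 scale. The value was -2.82 ± 0.171 (SE) for ALDH1A1, the one of these with a large difference in SUM159. It was 2.44 ± 0.192 for SLC6A14, 2.30 ± 0.244 for TGFB2, 1.75 ± 0.173 for COX7B2, 1.72 ± 0.159 for NTN4 and 1.54 ± 0.164 for DKK1, all higher in T47D Aldefluor+ cells. It was -1.68 ± 0.135 for SNX10 and -1.53 ± 0.128 for ABCA12, both lower in T47D Aldefluor+ cells.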

How the results depend on the processing

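Against 196 genes called for the T47D average, 700 were called with no replicate block, 128 with the block on the 12 T47D arrays alone, 327 among genes with a T47D mean of at least 2 and 323 with trend and robust variance shrinkage. The unblocked fit has more residual degrees of freedom, although the deposited values had experiment means taken out. Leaving out 1 experiment gave 48 to 68 genes. Other probe set rules, quantile normalization and median centring gave 192 to 214. With all 53617 probe sets tested, 203 were called, which included 131 of the 196 genes. For the treatment difference, 4 genes were called with no replicate block and 0 under the other alternatives. For the difference between the lines, against 107 genes, 446 were called with no replicate block, 169 among genes with a mean of at least 2, and 36 to 38 without 1 T47D experiment. Without 1 SUM159 array of narrow spread (DMSO Aldefluor+, experiment 4), chosen after seeing the data, the counts were 209, 0 and 92. Among named genes, only ALDH1A1 changed sign, with values from -0.022 to 0.185 when 1 experiment was left out, and it was never called. Of 72 called named genes, 33, 38 and 36 stayed called without experiments 5, 6 and 7, and 52 on the T47D arrays alone, where the lost calls included EGFR, ALCAM, CCL22, SAA1, KRT16, SOX2 and FJX1. The log2 ratio of RNA per cell lay between 0.45 and 0.58 without 1 experiment.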

Other observations

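Some called genes outside the lists, picked after their values were seen, have well known roles. SAT1, the enzyme that acetylates spermidine and spermine for breakdown or export, read 6.27 to 6.46 in Aldefluor- and 7.26 to 7.59 in Aldefluor+ arrays, a difference of 1.04 ± 0.0997 (limma, adjusted p = 4.26e-05). ANXA1 and ANXA3, calcium-dependent membrane-binding proteins, differed by 0.78 ± 0.0759 and 0.89 ± 0.11 (adjusted p = 4.26e-05 and 0.000378). The transcription factor STAT3 differed by 0.68 ± 0.0936 and CABLES1, a regulator of cyclin-dependent kinases, by 0.86 ± 0.0955. AHR, a receptor for aromatic ligands, differed by 0.56 ± 0.0949 (adjusted p = 0.00704), and its classic targets CYP1B1 and CYP1A1 did not pass, with 0.82 ± 0.203 and 0.74 ± 0.188 (adjusted p = 0.0752 and 0.0867), although CYP1B1 was called on the T47D arrays alone (0.00732). MAPT, the microtubule protein tau, differed by -0.88 ± 0.14 (adjusted p = 0.00431). SAT1, ANXA1, ANXA3 and CABLES1 were called without each experiment in turn. STAT3 was not called without experiment 5 (0.0728), and AHR and MAPT lost the call whichever experiment was left out (up to 0.177 and 0.0977).

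In the RefSeq gene order, 8 pairs of called genes were direct neighbours among the genes tested, and in 8 of the 8 both went the same way. They were PAMR1 with FJX1, STAT3 with CAVIN1, LMCD1 with LINC00312, ARHGEF26 with its antisense gene ARHGEF26-AS1, ZBTB2 with RMND1, RMND1 with DCPH1, GJC3 with AZGP1, and AZGP1 with AZGP1P1. RMND1 and AZGP1 each stand in more than 1 pair, so the pairs are not independent. The same shares over all neighbouring genes were not computed, so the count is a description only. AZGP1P1 is a pseudogene of AZGP1 and may share its probes, and probes of overlapping or antisense genes can be hard to tell apart. ZBTB2, RMND1 and DCPH1 were lower in Aldefluor+ cells, with differences of -0.47, -0.50 and -0.49, and CCDC170 and ESR1, which lie next to them, differed by -0.71 and -0.49 without passing the test (adjusted p = 0.0764 and 0.141), while CCDC170 was called on the T47D arrays alone (0.0384). Each of these neighbours lost the call without at least 1 experiment: LMCD1, ARHGEF26, ZBTB2, RMND1, DCPH1 and GJC3 whichever was left out, with adjusted p up to 0.279, 0.11, 0.193, 0.13, 0.37 and 0.184, and PAMR1 and CAVIN1 without experiment 5 alone (0.109 and 0.0532).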
